A study of Rattus norvegicus with 17 samples.

Results

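The genes described here encode the mitochondrial respiratory chain and the ATP synthase. They were taken by symbol from the array, as every gene whose current symbol starts with Nduf, Uqcr, Atp5 or Cox followed by a digit, together with Sdha, Sdhb, Sdhc, Sdhd and Cycs. This gave 77 of the 12978 genes with a symbol, each with 1 probe, and 70 of them were tested because their probe was detected on all arrays of at least 1 group (detection p under 0.05), among 10457 tested probes of 22226. All 70 tested members were in fact detected on every array. RNA came from hippocampal synaptosomes, a fraction enriched in pinched-off nerve terminals, of singly housed male Fischer 344 x Brown Norway F1 rats, with 1 array per rat. The groups were 5 adult rats of 12 months, 5 aged intact rats of 28 months and 7 aged impaired rats of 28 months, where intact and impaired refer to performance in the Morris water maze, a test of spatial memory that depends on the hippocampus. The synaptosomes were obtained by differential centrifugation and also hold RNA of other cells, and in such bulk samples fewer cells or terminals of a type cannot be told apart from less RNA in each. All adult arrays were on slide 1 and all aged arrays on slide 2, so age and slide cannot be told apart, whereas the aged intact and aged impaired arrays shared a slide.

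The respiratory chain moves electrons from NADH through complex I, or from succinate through complex II, to ubiquinone, and then through complex III, cytochrome c and complex IV to oxygen. The protons pumped on the way drive the ATP synthase, whose F1 part makes ATP at the inner face of the mitochondrial inner membrane. Nerve terminals depend on this supply for vesicle release and for ion pumping. A few subunits of these complexes are encoded in mitochondrial DNA and are outside the symbols used here, so that all members are nuclear genes, and the levels below are of their RNA, not of the complexes.

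No member passed the test in any comparison, and the median over the members lay close to that over all tested probes. In the limma fit over all tested probes, 0 of the 70 members passed an adjusted p of 0.05 for aged against adult rats, where 1.2% of all tested probes did. At an unadjusted p under 0.05 there were 10 members (14.3%, 3 higher and 7 lower in aged rats), against 17.2% of all tested probes. The median difference over the members was -0.01 on the log2 scale (29 above 0 and 41 below), beside -0.01 over all tested probes. Without regard to sign, the median size of the difference was 0.066 for the members and 0.042 for all tested probes. The reason for the larger value was not tested. Not a single member separated the 12 aged from the 5 adult arrays completely, while 0.325% of all tested probes were lower on every aged array than on any adult array and 0.593% were higher on every one. The 95% interval of the difference lay wholly within 1.5-fold in either direction for 69 of the 70 members, the exception being Atp5mk, and wholly within 1.2-fold for 49 of them. These counts include dim members whose differences depended on the background correction. With a robust estimate of the background, Ndufv3 went from -0.03 to -0.14 and Cox8b from -0.01 to -0.10. For such members a narrow interval does not show a lack of change.

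The aged groups taken singly gave the same counts of 0. For aged intact against adult rats 0 of 70 members passed (0.306% of all tested probes), with 8 at an unadjusted p under 0.05, all lower (11.4%, against 12.7% of all tested probes). For aged impaired against adult rats 0 of 70 members passed (0.363% of all tested probes), with 10 at an unadjusted p under 0.05, of which 3 were higher and 7 lower (14.3%, against 16.3%). Both comparisons share the adult arrays. For impaired against intact rats, 0 of 70 members passed (0.0% of all tested probes, that is 0), and 2 members, both lower in impaired rats, had an unadjusted p under 0.05 (2.9%, against 3.31%). The smallest adjusted p of a member by limma was 0.0697 for aged against adult (Ndufa10), 0.157 for intact against adult (Ndufa10), 0.117 for impaired against adult (Ndufv2) and 0.996 for impaired against intact rats. The test named in the methods is an analysis over the 3 groups followed by post hoc pairs with a limit of 1.2-fold. It was run here on the log2 values of the limma fit, whereas the paper used average normalization with background subtraction. Before adjustment it picked Atp5pd in intact rats and Atp5pd and Ndufv2 in impaired rats, against 2.78% and 2.87% of all tested probes. After Benjamini-Hochberg adjustment it picked 0 members in either comparison, and 0.143% and 0.124% of all tested probes. Between impaired and intact rats it picked 0 members before and after adjustment, and 0.172% and 0.0% of all tested probes.

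**Figure D1:**
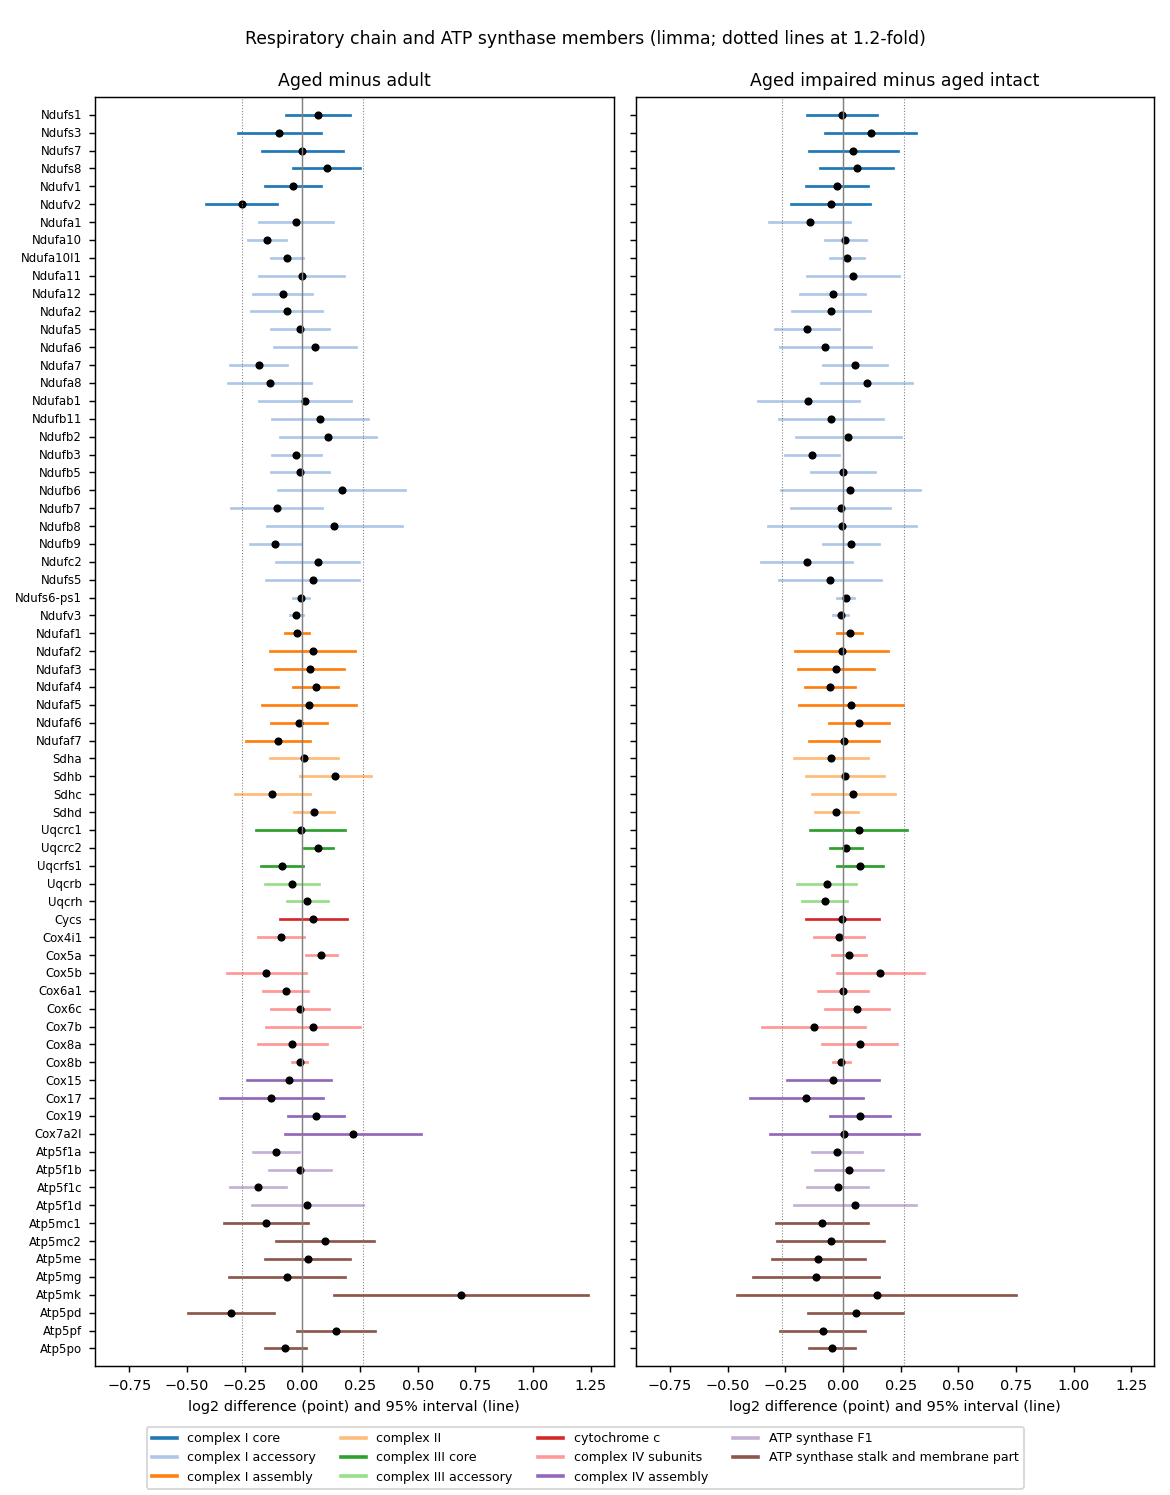
Log2 differences (x axis) of the 70 tested members (y axis, grouped and coloured by complex) for aged minus adult rats on the left and aged impaired minus aged intact rats on the right; points are limma estimates and lines their 95% intervals. Most points lie between the dotted 1.2-fold lines, and the interval of Atp5mk is the widest in both panels.

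The plot of differences by complex shows how close to 0 most members lay. For aged against adult rats the middle of the members ran from -0.08 to 0.05 (25th to 75th percentile), against -0.05 to 0.03 for all tested probes, and the median 95% interval reached 0.15 to either side of its estimate. The lowest member was Atp5pd at -0.31 and the highest Atp5mk at 0.69. Adult replicate 4 stood apart over the whole array, with a mean correlation of 0.976 with the other arrays (at least 0.986 for each of the rest) and 10440 detected probes, the lowest number, where the arrays ranged up to 11565. Mean signals ran from 313.4 to 617.5 over the 17 arrays. Because several members are extreme on adult replicate 4, differences without it are given beside each stated difference with age that it moved by 0.04 or more on the log2 scale.

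The promoters of these genes are shown because nuclear genes of the respiratory chain are known to be driven in part by shared factors, among them NRF1, the ETS family factor GABP and YY1. Promoter sequence from 250 bases before to 50 after each start, from RefSeq on build GRCr8, was found for 61 of the 70 tested members. The NRF1 core GCATGCGC, on either strand, was in 11 of the 61 (18.0%), against 5.3% of 6071 tested genes and 2.7% of all 27457 promoters. The ETS core CCGGAAG was in 20 (32.8%, against 17.9% and 9.2%), and the YY1 core AAGATGGCG in 6 (9.8%, against 3.8% and 1.9%). The motifs were searched as exact letters on both strands; the NRF1 core overlaps its own reverse complement and the last letters of the ETS core are the first of the YY1 core, so that matches can overlap. A match in such a window describes its letters only. Windows of 60 bases upstream of the start follow for members that the results below turn on, written 5′ to 3′ on the gene's strand, with the match in capitals (a match on the opposite strand reads as GCGCATGC or CTTCCGG).
Atp5me, NRF1, chr14:1464761-1464820, + strand: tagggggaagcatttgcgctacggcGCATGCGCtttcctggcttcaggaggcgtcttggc
Atp5mg, NRF1, chr8:54130598-54130657, - strand: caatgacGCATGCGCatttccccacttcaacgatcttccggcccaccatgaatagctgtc
Cycs, NRF1, chr4:80984890-80984949, - strand: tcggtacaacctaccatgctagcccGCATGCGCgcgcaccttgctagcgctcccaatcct
Sdhb, NRF1, chr5:158547742-158547801, + strand: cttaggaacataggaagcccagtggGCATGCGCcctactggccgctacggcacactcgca
Atp5mk, ETS, chr1:255922071-255922130, - strand: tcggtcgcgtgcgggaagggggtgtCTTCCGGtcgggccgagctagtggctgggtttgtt
Cox5b, ETS, chr9:46417777-46417836, + strand: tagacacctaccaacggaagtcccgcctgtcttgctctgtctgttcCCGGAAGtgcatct
Uqcrc2, ETS, chr1:184599098-184599157, + strand: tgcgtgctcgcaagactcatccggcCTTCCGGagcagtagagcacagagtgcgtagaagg
Ndufa2, ETS, chr18:28631996-28632055, - strand: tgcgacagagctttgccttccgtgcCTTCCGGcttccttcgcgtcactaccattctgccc
Among the members shown, Atp5me, Atp5mg and Sdhb each carried both an NRF1 and an ETS core in the full window. The Atp5mg stretch shown also holds its ETS core, in lower case.

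Complex I takes electrons from NADH, and its core subunits, which carry the flavin and the iron-sulfur clusters, had their lowest value with age in Ndufv2. Ndufv2, an iron-sulfur subunit beside the NADH binding site, read 11.54, 11.55, 11.63, 11.83 and 11.49 on the log2 intensity scale in adult replicates 1 to 5 and 11.49, 11.44, 11.27, 11.20 and 11.44 in aged intact replicates 1 to 5. In the 7 aged impaired rats it ran from 11.07 over a median of 11.32 to 11.57. Of the 12 aged arrays, 10 were below the lowest adult array, and aged impaired replicate 5 was the highest aged array. The difference of aged against adult rats was -0.26 ± 0.073 (SE, 0.833-fold, adjusted p = 0.0899, limma), and -0.21 without adult replicate 4 (adjusted p = 0.283). Impaired and intact rats differed in Ndufv2 by -0.05 (95% interval -0.23 to 0.12).

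The other core subunits of complex I lay closer to 0. Of the 6 tested core subunits, 2 were above 0 in aged rats and the median was -0.02. Ndufs1, the largest iron-sulfur subunit, was at 11.34 ± 0.16 in adult and 11.40 ± 0.11 in aged rats (SD, n = 5 and 12), a difference of 0.07 (95% interval -0.07 to 0.21). Ndufv1, which binds NADH and the flavin, differed by -0.04 (-0.16 to 0.08, and 0.00 without adult replicate 4), and Ndufs8, which holds iron-sulfur clusters on the path to ubiquinone, by 0.11 (-0.04 to 0.25, and 0.06 without that array). Ndufs7, the subunit next to the ubiquinone site, had nearly equal means of 10.28 in both ages, but its SD was 0.031 in adult rats and 0.18 in aged rats. Ndufs3 differed by -0.10 (-0.28 to 0.08) with age and by 0.12 (-0.08 to 0.32) between impaired and intact rats. Adult replicate 4 was its highest adult array at 11.55, and without it the difference of Ndufs3 with age was -0.02, and that of impaired against adult rats turned from -0.04 to 0.04.

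The accessory subunits of complex I, which surround and stabilise the core, held the member with the smallest p. Ndufa10, an accessory subunit of the matrix side, read 11.22, 11.25, 11.12, 11.38 and 11.23 in adult replicates 1 to 5 and 11.18, 10.96, 11.13, 11.02 and 11.12 in aged intact replicates 1 to 5. In aged impaired rats it ran from 11.03 over a median of 11.08 to 11.14. The aged arrays lay below 4 of the 5 adult arrays and overlapped only adult replicate 3. The difference was -0.15 ± 0.039 (SE, 0.899-fold, adjusted p = 0.0697), it was -0.12 without adult replicate 4 (adjusted p = 0.205), and it passed the threshold only without adult replicate 3 (-0.18, adjusted p = 0.0497). Its close copy Ndufa10l1 was at -0.07 (95% interval -0.13 to 0.00). Whether the probes of both copies share signal was not tested, so which copy each value reports remains uncertain.

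Ndufa7 and Ndufb9 were also lower in aged rats at an unadjusted p under 0.05, without passing the adjusted threshold. Ndufa7 read 8.14, 8.07, 8.22, 8.53 and 8.20 in adult replicates 1 to 5 and 8.01, 7.98, 8.09, 7.95 and 8.05 in aged intact replicates 1 to 5. The 7 aged impaired rats ran from 7.91 over 8.06 to 8.16. Of the 12 aged arrays, 8 were below the adult range and none above it, and the difference was -0.19 ± 0.059 (SE, adjusted p = 0.124), or -0.12 without adult replicate 4. Ndufb9 was at -0.12 (95% interval -0.23 to -0.01, adjusted p = 0.267), and at -0.06 without adult replicate 4, its highest array at 13.12. Over the 23 tested accessory subunits of complex I, 8 were above 0, with a median of -0.01. The highest, Ndufb6, at 0.17 ± 0.13 (SE, adjusted p = 0.512), and Ndufb8 at 0.14 ± 0.14 were low on adult replicate 4, which read 9.45 and 10.14 for them where the other adult arrays read at least 9.82 and 10.95. Without that array the differences were 0.03 and -0.06.

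In the comparison of impaired with intact rats, the smallest p of any member belonged to a pair of complex I accessory subunits, Ndufb3 and Ndufa5. Ndufb3 read 11.59, 11.64, 11.42, 11.43 and 11.41 in intact replicates 1 to 5 and from 11.28 over 11.38 to 11.43 in impaired rats. Ndufa5 read 11.31, 11.38, 11.25, 11.19 and 11.17 in intact replicates 1 to 5 and from 11.01 over 11.12 to 11.19 in impaired rats. For both genes the groups overlapped, since the highest impaired array reached the lowest intact ones. The differences were -0.14 (95% interval -0.25 to -0.02) and -0.16 (-0.29 to -0.02), each with an adjusted p of 0.996, and adult rats averaged 11.46 and 11.19. Ndufa1, another small accessory subunit of the membrane arm, differed by -0.14 (-0.32 to 0.03).

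Complex II, which oxidises succinate and is also an enzyme of the tricarboxylic acid cycle, was measured with all 4 subunits. Sdhb, its iron-sulfur subunit, read 11.13, 11.13, 11.24, 10.74 and 11.04 in adult replicates 1 to 5 and 11.25, 11.29, 11.29, 11.19 and 10.96 in aged intact replicates 1 to 5. In aged impaired rats it ran from 11.10 over 11.16 to 11.36. Of the 12 aged arrays, 6 were above the adult range, and the difference was 0.14 (95% interval -0.01 to 0.30, adjusted p = 0.328), or 0.07 without adult replicate 4. Sdhc, a membrane anchor, went the other way at -0.13 (-0.29 to 0.03, and -0.07 without adult replicate 4), while the flavoprotein Sdha at 0.01 (-0.14 to 0.15) and the second anchor Sdhd at 0.05 (-0.04 to 0.13) lay near 0.

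Complex III, which passes electrons from ubiquinol to cytochrome c, had 5 tested members with small differences in both directions. Uqcrc2, a core protein, read 12.41, 12.34, 12.41, 12.31 and 12.30 in adult replicates 1 to 5 and 12.39, 12.46, 12.36, 12.39 and 12.49 in aged intact replicates 1 to 5. Values of aged impaired rats ran from 12.35 over 12.43 to 12.50, and 7 of the 12 aged arrays were above the adult range. Its difference of 0.07 ± 0.029 (SE, 1.049-fold, adjusted p = 0.247) was small in size and its interval (0.01 to 0.13) lay wholly within 1.2-fold. The Rieske iron-sulfur protein Uqcrfs1 was at -0.09 (-0.18 to 0.00, and -0.04 without adult replicate 4) and the core protein Uqcrc1 at -0.01 (-0.20 to 0.18). Cycs, the mobile carrier cytochrome c, read 12.39 ± 0.16 in adult and 12.44 ± 0.11 in aged rats (SD, n = 5 and 12), a difference of 0.05 (-0.10 to 0.19).

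Complex IV reduces oxygen to water, and its nuclear subunits surround a catalytic core encoded in mitochondrial DNA. Cox5a, a matrix-side subunit, read 11.55, 11.68, 11.54, 11.54 and 11.63 in adult replicates 1 to 5 and 11.69, 11.60, 11.62, 11.71 and 11.65 in aged intact replicates 1 to 5. The aged impaired rats lay from 11.55 over 11.70 to 11.74, so that 7 of the 12 aged arrays were above the adult range. Its difference was 0.08 ± 0.032 (SE, 1.058-fold, adjusted p = 0.209). Its partner Cox5b, a zinc-binding subunit, was at -0.16 (95% interval -0.33 to 0.02) with age, and at 0.16 (-0.03 to 0.35) between impaired and intact rats, where aged intact replicate 5 was the lowest array at 10.60. Cox4i1, the regulatory subunit of most tissues, was at -0.09 (-0.19 to 0.01, and -0.05 without adult replicate 4), Cox6a1 at -0.07 (-0.17 to 0.03) and Cox8a at -0.04 (-0.19 to 0.10). Of the 8 tested subunits of complex IV, 2 were above 0 in aged rats.

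Cox7a2l, which helps join complexes III and IV into supercomplexes, illustrates how far a single array reached. Its adult replicates 1 to 5 read 10.89, 11.10, 11.08, 10.01 and 10.95, the aged intact replicates 11.06, 11.07, 11.12, 10.89 and 10.98, and the aged impaired rats ran from 10.74 over 11.06 to 11.21. Apart from adult replicate 4, the adult arrays lay inside the range of the aged arrays, of which 4 were above the highest adult array. The difference with age was 0.22 ± 0.14 (SE, adjusted p = 0.426) with that array and 0.02 without it.

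The ATP synthase held both ends of the range of differences. In its F1 part, Atp5f1c, the central shaft that turns inside the catalytic ring, read 11.77, 11.66, 11.79, 12.13 and 11.72 in adult replicates 1 to 5 and 11.73, 11.59, 11.63, 11.60 and 11.64 in aged intact replicates 1 to 5. Impaired rats ran from 11.53 over 11.62 to 11.72, and 10 of the 12 aged arrays were below the adult range. The difference was -0.19 ± 0.057 (SE, 0.876-fold, adjusted p = 0.111), and -0.11 without adult replicate 4 (adjusted p = 0.201). Atp5f1a, the noncatalytic subunit of the ring, was at -0.11 (95% interval -0.21 to -0.01, adjusted p = 0.238), and the catalytic subunit Atp5f1b at -0.01 (-0.15 to 0.12).

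In the stalk and membrane part, Atp5pd was the lowest member and Atp5mk the highest. Atp5pd, a subunit of the peripheral stalk that holds the F1 ring still, read 9.86, 9.92, 10.09, 10.11 and 9.79 in adult replicates 1 to 5 and 9.73, 9.79, 9.71, 9.36 and 9.48 in aged intact replicates 1 to 5. Impaired rats lay from 9.32 over 9.70 to 9.84. Of the 12 aged arrays, 9 were below the adult range and none above it. The difference was -0.31 ± 0.088 (SE, 0.806-fold, adjusted p = 0.1), -0.34 in intact and -0.28 in impaired rats, and -0.27 without adult replicate 4 (adjusted p = 0.283). It kept its sign in the alternatives run, between -0.37 and -0.26 with normalized and -0.07 with unnormalized signals.

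Atp5mk, a small membrane subunit at the contact between ATP synthase dimers, read 9.77, 8.94, 9.29, 8.51 and 8.77 in adult replicates 1 to 5 and 9.81, 10.05, 9.05, 9.98 and 9.46 in aged intact replicates 1 to 5. The impaired group ran from 9.07 over 9.76 to 10.67. Its arrays were widely spread in every group, and 6 of the 12 aged arrays were above the adult range. The difference of 0.69 ± 0.26 (SE, 1.609-fold, adjusted p = 0.197) had an interval from 0.14 to 1.24, and was 0.55 without adult replicate 4. Of the other subunits, Atp5pf in the stalk was at 0.15 (-0.02 to 0.31), or 0.06 without adult replicate 4. The genes of the proton-carrying ring, Atp5mc1 and Atp5mc2, were at -0.16 (-0.34 to 0.02) and 0.10 (-0.11 to 0.31), and without adult replicate 4 at -0.10 (Atp5mc1) and -0.02 (Atp5mc2).

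**Figure D2:**
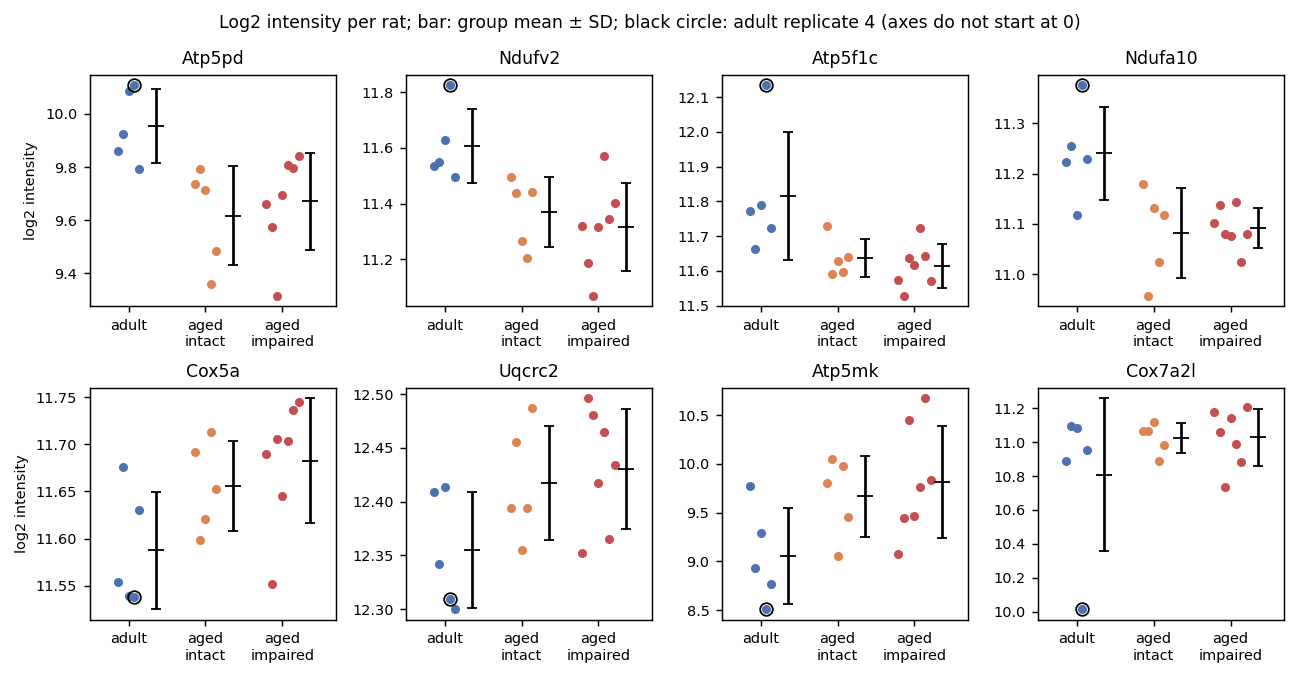
Log2 intensity (y axis) of 8 members in each rat by group (x axis); the horizontal bar and whiskers give the group mean and SD, the black circle marks adult replicate 4, and the y axes do not start at 0. The groups overlap for all 8 members, and adult replicate 4 is the highest or lowest adult array for all of them but Uqcrc2.

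The plot of single rats shows both aged groups over the same range for these 8 members, whose differences between impaired and intact rats were between -0.05 (Ndufv2) and 0.15 (Atp5mk). Without adult replicate 4 the count of members passing for aged against adult rats stayed at 0 (0.274% of all tested probes). At an unadjusted p under 0.05 there were 8 members, all lower in aged rats (11.4%, against 11.0% of all tested probes).

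The remaining 7 members did not pass the detection filter and give no value. Ndufs4 and Cox8c, the latter known as a testis form of a complex IV subunit, were detected on 0 of 17 arrays. Cox18 was detected on 1 impaired array, Ndufb4 on 2 impaired arrays, and Cox6a2, the form of heart and skeletal muscle, on 2 adult, 1 intact and 1 impaired array. Cox20 was detected on 2 adult, 3 intact and 5 impaired arrays, and Atp5mc3 on 4 adult, 2 intact and 3 impaired arrays. These probes were not well above background, which does not show that the genes are silent. Ndufs6-ps1, which carries a pseudogene symbol, was tested and lay at 0.00 with age, or at -0.05 with a robust estimate of the background.

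The genes around the respiratory chain gave a similar picture, with lists written from general knowledge. For the tricarboxylic acid cycle, 0 of 14 tested genes passed for aged against adult rats by limma, with a median of -0.03. For other respiratory chain and coupling proteins 0 of 13 passed (median -0.01), for regulators of mitochondrial biogenesis 0 of 11 (median -0.01), and for mitochondrial protein import 0 of 16 (median -0.03). Among assembly factors outside the symbols used here, 1 of 21 passed, where 1.2% of all tested probes did. The gene that passed was Sdhaf1, needed for iron-sulfur cluster insertion into complex II. It fell from 10.55 ± 0.20 in adult to 10.23 ± 0.11 in aged rats (SD, n = 5 and 12), a difference of -0.32 ± 0.074 (SE, adjusted p = 0.0471). The call for Sdhaf1 held without adult replicate 1, aged impaired replicate 4 or aged impaired replicate 6 and was lost when any of the other 14 arrays was left out (-0.25, adjusted p = 0.141 without adult replicate 4), with adjusted p up to 0.636 under the other settings (median scaling).

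Markers of other cell types were set beside these values. Of 13 tested markers of neurons and nerve terminals, 0 passed with age (median -0.01). Their mean level per array lay between 9.79 and 9.89 in adult, 9.78 and 10.02 in aged intact and 9.75 and 9.96 in aged impaired rats. In adult rats that of astrocyte markers lay between 11.86 and 12.11, of oligodendrocyte markers between 9.96 and 10.30, and of endothelial markers between 7.17 and 7.39. With no unfractionated hippocampus among the arrays, these levels do not show how far nerve terminals were enriched. Of 13 microglial markers, 2 passed with age, both higher, where 1.2% of all tested probes passed. Cd74 was higher by 2.25 ± 0.40 (SE, adjusted p = 0.017) and P2ry12 by 0.55 ± 0.11 (adjusted p = 0.0305). Without adult replicate 4 these were 2.24 (adjusted p = 0.0628) for Cd74 and 0.51 (adjusted p = 0.102) for P2ry12, and with median scaling their adjusted p was 0.0589 and 0.634. With the replicate block the adjusted p of Cd74 and of P2ry12 was 0.102. For P2ry12 the call was also lost without adult replicate 2, 3 or 5, without aged intact replicate 2, 4 or 5, with average normalization (adjusted p = 0.0559), with no detection filter (0.057) and with unnormalized signals (0.0611). All 13 microglial markers were above 0 for aged against adult rats, where 44.1% of all tested probes were. The mean level of these markers was between 8.35 and 8.54 in adult rats, 8.73 and 8.98 in the aged intact group and 8.61 and 10.06 in the aged impaired group. Of 9 oligodendrocyte markers 0 passed, with a median of 0.18 for aged against adult rats, and all 9 were below 0 for impaired against intact rats (median -0.21). For 6 astrocyte markers the median with age was 0.02 and for 2 endothelial markers 0.10, with 0 passing. The part of these other cells in the members' values was not tested.

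The members also varied between rats of a group. For each array, the median over the 70 members of the difference from the adult mean ran from -0.08 to 0.05 in adult rats, from -0.09 to 0.07 in aged intact rats and from -0.10 to 0.09 in aged impaired rats. The extremes were aged impaired replicates 4 and 6, in the same group and on the same slide. The median over all tested probes stayed between -0.02 and 0.02 on these arrays, where quantile normalization keeps it small. Whether the members varied more than other sets of genes was not tested. For the 41 accessory and other non-core subunits alone the array medians ran from -0.13 on aged impaired replicate 4 to 0.14 on aged impaired replicate 6, while for the 18 core subunits (those of complex I and III, complex II, cytochrome c and F1) they ran from -0.09 to 0.07.

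**Figure D3:**
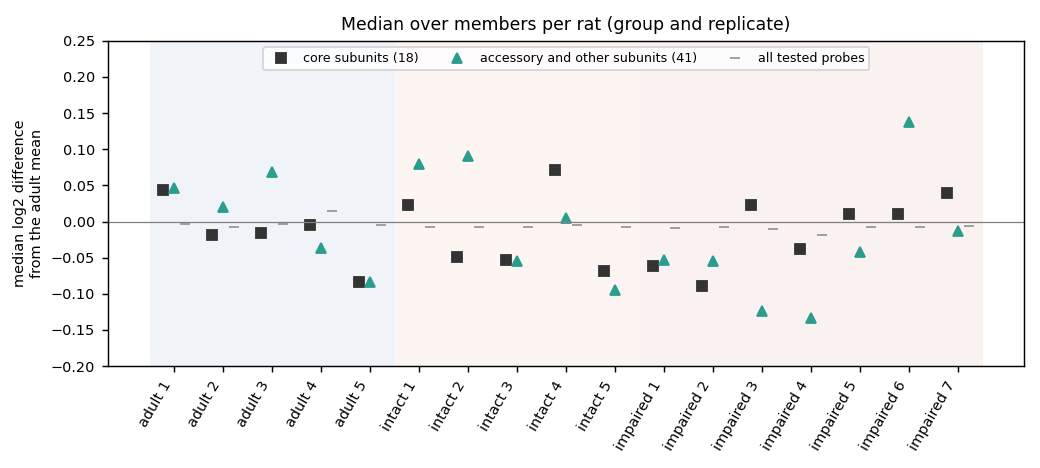
Median over members of the log2 difference from the adult mean (y axis) for each rat (x axis), for the 18 core subunits (squares), the 41 accessory and other subunits (triangles) and all tested probes (dashes). The triangles spread from -0.13 to 0.14, with overlap of all groups, and the dashes stay near 0, where quantile normalization keeps them.

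The plot of array medians shows that rats with high accessory subunits were not always those with high core subunits. With each group's mean removed, the correlation between members over the 17 arrays averaged 0.167 over 2415 pairs, and 21.0% of pairs were above 0.5. The average over pairs of all tested probes was 0.0053. Quantile normalization tends to keep that average small, so it is no baseline for a chosen set of probes. The share of pairs above 0.5 was not computed for other probes. Within the 41 accessory and other subunits the average was 0.275, within the 18 core subunits 0.07, between these classes 0.109, and within 11 assembly factors 0.026. The points of each correlation are the same 17 libraries, so shared array effects can enter every pair, not necessarily to the same degree. The values are descriptions. Without aged impaired replicate 6 the averages were 0.125 over all members and 0.201 within accessory subunits, without adult replicate 4 they were 0.208 and 0.337, and without both 0.163 and 0.253.

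By complex, the highest average was that of the stalk and membrane part of the ATP synthase (0.344, 8 genes), followed by the complex IV subunits (0.259, 8 genes) and the complex I accessory subunits (0.231, 23 genes). The F1 subunits of the ATP synthase averaged -0.088 over 4 genes, and complex II averaged -0.121 over 4 genes. Ndufa2, an accessory subunit of complex I, had the highest average with the other members (0.392), and Sdha, the flavoprotein of complex II, the lowest (-0.328). Pairs such as Atp5me with Cox7b (r = 0.88) and Atp5mg with Atp5me (r = 0.83) were among the closely matched ones, and Sdha ran against Ndufaf2, a complex I assembly factor (r = -0.86).

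**Figure D4:**
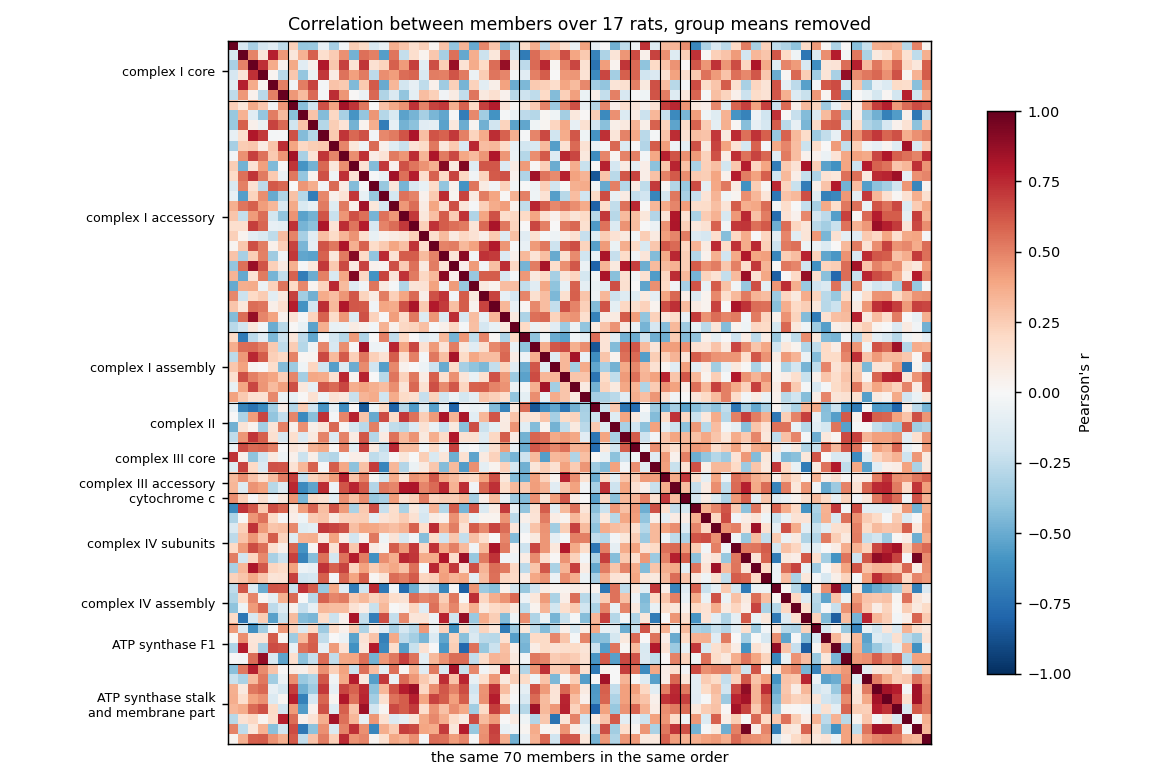
Pearson's r between each pair of the 70 members over 17 rats after removing group means, with members on both axes in order of complex and black lines between complexes. Red (positive) cells fill much of the complex I accessory, complex IV and ATP synthase membrane blocks, and the row of Sdha in complex II is mostly blue (negative).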

How the data were processed

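RNA of hippocampal synaptosomes of 17 rats was hybridised to Illumina RatRef-12 arrays. The authors exported mean bead signals from GenomeStudio (1.0.6 in the submitters' processing notes), and these deposited intensity values had neither background correction nor scaling across arrays. Each deposited p-value is a detection p, computed in that software against negative control beads. Arrays report intensities, so their number limits the precision. Probe symbols came from the platform annotation (13192 probes with 1 symbol, 0 with several, 9034 with none) and were updated by Entrez ID for 13151 probes, which changed 0 members.

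The neqc function of limma (3.58.1, run in R 4.3.3) gave log2 intensities, with the background from the detection p, offset 16 and quantile normalization. Probes were kept if every array of some group detected them (p under 0.05), and the 3 groups were fitted with lmFit and eBayes. Aged against adult is the mean of both aged groups minus the adult group. Benjamini-Hochberg adjustment ran over all 10457 tested probes at 0.05, and every adjusted p is from this limma fit, except where a left-out array or another setting is named, whose own limma fit adjusts over the probes tested there. Group labels came from the sample labels, and nothing in those labels gives more than 1 array per rat. Replicate numbers count the arrays of each group in the order of the samples. They differ from the numbers in the titles of the adult and aged intact samples. The procedure was tested on simulated data.

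The members, the lists and the tests were chosen with earlier results of these data known. The text names the 5 highest and 5 lowest members with age, the 3 higher and 3 lower members of smallest p in impaired against intact rats, and a list of 31 main subunits of which 24 were tested. Ndufa10, Ndufa10l1, Ndufa2, Ndufb8, Ndufb9, Ndufv3, Atp5me, Atp5mg, Cox7b, Cox8b, Ndufaf2, Ndufs6-ps1, Sdhaf1, Cd74 and P2ry12 were named after their values were seen. Alternatives covered background, normalization, offset, filter, array weights, slide position, replicate block, the methods' test and leaving out each array. Maze scores, quantitative PCR, immunoblots and histology were not analysed here.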

Additional observations from a re-analysis of the deposited data

Results flagged for a closer look

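For the named members, single arrays were compared with the rest of their group in 117 groups of 5 or 7 arrays, and 8 arrays lay so far from the nearest other array, relative to the range of the group, that chance would give such a gap in about 1 in 20 groups. Of these, 3 were on adult replicate 4, the array with the lowest mean correlation with the others. It was the highest adult array for Atp5f1c at 12.13 (next 11.79) and the lowest for Atp5mc2 at 10.66 (next 11.18) and Cox7a2l at 10.01 (next 10.89). Aged impaired replicate 6 was the highest impaired array for Atp5mc1 at 11.44 (next 11.11) and for Ndufs7 at 10.72 (next 10.31). Among aged intact rats, replicate 1 was highest for Cox4i1 at 13.05 (next 12.95), replicate 5 lowest for Cox8a at 12.51 (next 12.78) and replicate 3 lowest for Cycs at 12.15 (next 12.51). All values are log2 intensities. The 117 groups come from genes read on the same arrays and are not independent, so the share of 1 in 20 is no measure for the count of 8.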

How the results depend on the processing

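The count of members passing stayed at 0 in all 4 comparisons with median scaling, average normalization, no or a robust background correction, an offset of 50, no detection filter, detection on every array, only the groups compared, array weights and slide position. In these settings 0.0574% (median scaling) to 2.06% (array weights) of all tested probes passed for aged against adult rats, and at most 1.4% in the other comparisons. At such shares a count of 0 among 70 members is not a trait of the members. Leaving out each array gave 0 to 1 members for aged against adult (1, Ndufa10, without adult replicate 3, where 0.496% of all tested probes passed). With signals neither background-corrected nor normalized, the members' median was 0.211, 0.156, 0.272 and 0.11 for aged, intact and impaired against adult and for impaired against intact rats, beside 0.216, 0.176, 0.254 and 0.094 over all tested probes, and 1 member passed in impaired rats (Atp5mk, 0.93, adjusted p = 0.0342; 3.48% of all tested probes). The methods' test before adjustment picked 1 member in intact and 2 in impaired against adult rats, and 0 after adjustment. It was not run for aged against adult, which is no pair of its groups, and averaging probes was not run since each member has 1 probe. With the replicate block 0 members passed (0.00956% of all tested probes for aged against adult rats) and the medians were -0.03, -0.01, -0.06 and -0.04. The replicate numbers share only a number: the correlation of same-numbered arrays ran from -0.38 to 0.24, with 4 of 15 over 0.1. The sign held in the other 11 alternatives with normalized signals and all 17 leave-outs for 42, 41, 38 and 24 of the 70 members. These settings reuse the same arrays, and the share for all tested probes was not computed, so the counts are descriptions. The SD of the background that neqc estimated from the detection p was 119.7 to 225.4 per array, against 5.41 to 11.1 from the robust estimate, which limits dim probes.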
